A study of Homo sapiens with 36 samples.

Results

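The genes described are 44 genes of the TGF-beta, NODAL and BMP signalling pathways, chosen by symbol, of 58721 genes in the deposited count matrix. They are 12 ligands, 10 receptors including betaglycan, 8 SMADs, 9 secreted or membrane inhibitors, the latency protein LTBP1 and the 4 ID genes, and each was found as 1 row of the matrix. RNA was sequenced from H1 cells, a line of human embryonic stem cells, on the way to cardiomyocytes. PERK KO cells were sequenced at days 0, 1, 2, 3, 5 and 10 and set against wild-type cells of the same days, with 3 libraries for each genotype and day (36 in 12 groups). These days are those of the sample labels; the design text of the series speaks of collection at days 0, 2 and 6, so the sources differ. PERK, encoded by EIF2AK3, is a kinase of the endoplasmic reticulum that slows translation when unfolded protein builds up there. Cells of both genotypes received 5 μM CHIR99021, which activates WNT signalling, over days 0 to 1, and 3 μM IWP2, which blocks WNT secretion, over days 2 to 5. Both also received 3 μg/ml heparin over days 1 to 7 and 20 μg/ml insulin from day 7. How PERK was disrupted, and from how many clones the cells came, is not given in the sources used here.

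These ligands are secreted as dimers that bring together a type I and a type II receptor, both of them serine/threonine kinases. The type I receptor phosphorylates SMADs: SMAD2 and SMAD3 after TGF-beta, activin or NODAL, and SMAD1, SMAD5 and SMAD9 (SMAD8) after BMPs. The phosphorylated SMADs join SMAD4, enter the nucleus and change transcription, including that of inhibitors of the same pathway. In the early embryo NODAL and BMP4 with WNT drive the primitive streak and mesoderm, activin or NODAL signalling keeps human pluripotent cells undifferentiated, and BMPs act again in forming the heart.

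The libraries held 14002137 to 25860481 counts. EIF2AK3, the targeted gene, lay between 11.9 and 22.9 CPM (read counts relative to TMM-scaled library size) over the PERK KO libraries, against 10.1 to 28.1 CPM over the wild-type libraries. It was not called at any day by edgeR (adjusted p 0.127 to 0.981), so its level does not check the genotype labels, since a gene can be inactivated with its transcript still present. Replicate 2 of PERK KO at day 0 stood apart from replicates 1 and 3. Its counts fell on shorter transcripts (mean effective length 1736 nt, against 2540 and 2495 nt), and its chi-square per degree of freedom was 148 and 137 against them, while they differed from each other by 4.15. Replicate 3 of wild type at day 2 differed from the other two by 74.5 and 69.7, and those from each other by 4.05; the wild-type day 3 libraries were spread out (24.2, 31.6 and 87.2). Nothing in the labels says that replicates are separate cultures, so p-values measure only the spread between these samples. The cells of both genotypes carried stem cell markers at day 0: the 8 pluripotency markers summed to 4780 to 6060 TPM (abundance that also allows for transcript length) in PERK KO libraries and 5970 to 6350 TPM in wild type, with all 8 at 1 TPM or more in each. Cardiomyocyte markers marked the wild-type cells at day 10, where the 9 genes summed to 112 to 473 TPM in PERK KO libraries, against 11600 to 13500 TPM in wild type. They were not the only markers there. The 7 endoderm genes summed to 551 to 937 TPM in PERK KO libraries, against 2900 to 3740 TPM in wild type.

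Relative to wild type, PERK KO cells had lower RNA of most ligands, of both inhibitory SMADs and of most BMP inhibitors from day 2 or 3 on, while receptors and the signal-carrying SMADs differed less and in both directions. A gene was called at a Benjamini-Hochberg adjusted p under 0.05 from edgeR's quasi-likelihood test over 19772 genes, all 44 among them. Fold changes are PERK KO over wild type on the log2 scale, with their standard error. At day 0, 4 of 44 were higher and 4 lower in PERK KO cells, beside 12.5% and 8.64% of all genes tested. At day 1, 2 were higher and 14 lower, beside 8.11% and 7.72% of all genes. At day 2, 7 were higher and 21 lower, beside 20.9% and 21.7%. At day 3, 8 were higher and 22 lower, beside 21.9% and 23.2%. At day 5, 11 were higher and 23 lower, beside 28.6% and 30.5%. At day 10, 5 were higher and 27 lower, beside 33.3% and 34.0%. Thus at day 0 both shares were near those of all genes. From day 1 on the 44 genes leaned to the lower side while all genes split about evenly. The 44 genes were chosen with earlier results of these data known, so the choice may have shaped this lean. The median log2 fold change of the 44 was -0.12, -0.30, -0.42, -0.91, -0.90 and -0.86 from day 0 to day 10, and -0.11, -0.30, -0.42, -0.91, -0.90 and -0.88 with genes at 0 reads in a group set at their bound (a floor of 3 reads over the group). Over all genes tested it stayed between -0.03 and 0.03. Without the libraries that stood apart at day 0 and day 2, the members called were 8, 20, 28, 32, 35 and 33 from day 0 to day 10. In a fit of only the 6 libraries of day 0, none of the 8 day 0 calls held. TGFB1 and SMAD7 were called, as lower, at all 6 days, 13 genes were called in both directions at different days, and ACVR2B was called at none. Called higher in PERK KO cells at 2 or more days were 12 genes: FST at 4 days, BMPR1B, ID4, LEFTY1 and SMAD4 at 3, and BMP6, BMP7, BMPR1A, CER1, GREM1, ID1 and INHBB at 2. Of these 12, all but BMPR1A, BMPR1B, LEFTY1 and SMAD4 were also called lower at another day. Such counts over days were not taken for all genes tested, so they have no background to be read against. The counts by role given below were not tested against the shares of all genes at each day.

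**Figure D1:**
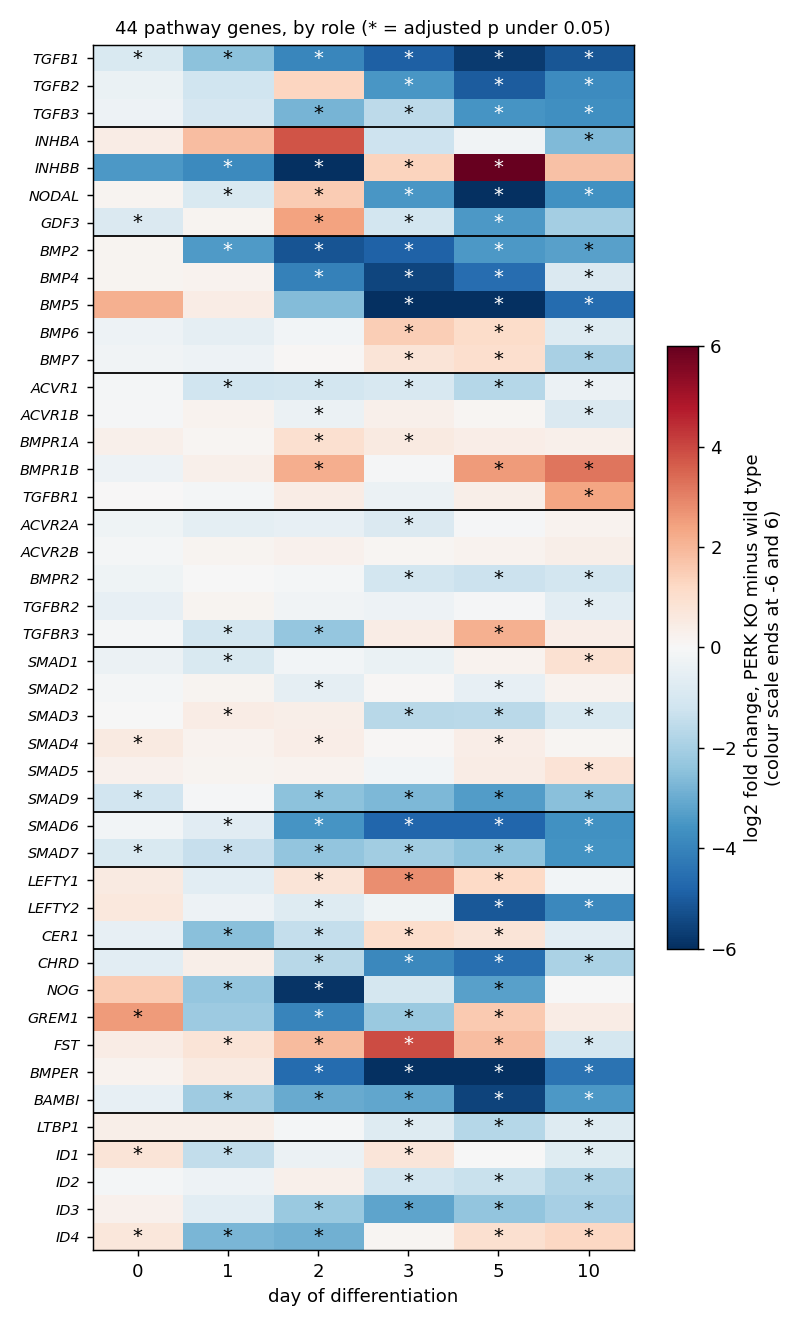
Log2 fold change of PERK KO over wild type for the 44 genes (rows, grouped by role with black lines) at each day (columns), with blue for lower and red for higher in PERK KO cells, and an asterisk where the edgeR adjusted p is under 0.05. TGFB1 and SMAD7 carry an asterisk at all 6 days, and the darkest blue lies in rows of ligands and inhibitors such as INHBB, BMP5, BMPER and NODAL, while most receptor rows and those of SMAD1 to SMAD5 are paler.

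At each later day fewer of the 44 genes were called as risen from day 0 in PERK KO cells than in wild type. The share of all genes called as risen was also smaller in PERK KO cells at each of these days. The contrast is thus not particular to the 44, and this difference of counts was not itself tested. Each later day was compared with day 0 of the same genotype, so the comparisons of one genotype share their day 0 libraries. In PERK KO cells 10 of 44 rose and 16 fell by day 1 (18.0% and 25.1% of all genes), 14 rose and 12 fell by day 2 (17.5% and 23.8%), and 16 rose and 11 fell by day 3 (18.5% and 21.8%). By day 5, 21 rose and 10 fell in PERK KO cells (21.5% and 27.3% of all genes), and by day 10, 25 rose and 6 fell (29.9% and 31.9%). In wild type 14 rose and 11 fell by day 1 (20.9% and 23.7% of all genes), 26 rose and 11 fell by day 2 (25.4% and 25.1%), and 27 rose and 6 fell by day 3 (29.3% and 27.5%). By day 5, 30 rose and 6 fell in wild type (31.4% and 30.5% of all genes), and by day 10, 28 rose and 6 fell (34.9% and 34.3%). The median log2 change of the 44 from day 0 was -0.04, 0.34, 0.20, 0.51 and 0.90 at days 1 to 10 in PERK KO cells (-0.10, 0.26, 0.19, 0.51 and 0.73 with genes at 0 reads at their bound). In wild type it was 0.34, 0.82, 0.98, 1.52 and 2.10 (0.34, 0.82, 0.98, 1.76 and 2.13 with bounds). The difference between the genotypes itself varied with day for 38 of 44 genes (edgeR interaction of genotype and day), beside 80.9% of all genes, so this share is near the background. ACVR2B, BMPR1A, TGFBR2, SMAD2, SMAD4 and SMAD5 were the 6 not called.

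TGFB1 encodes TGF-beta 1 (ENSG00000105329.9, GRCh38 chromosome 19, 41301587 to 41353911, minus strand) and was lower in PERK KO cells at every day, by more from day to day up to day 5. TGFB1 at day 0 stood at 10.1, 12.6 and 9.93 CPM in PERK KO libraries, against 16.6, 23.9 and 20.3 CPM in wild-type libraries (log2 fold change -0.90 ± 0.19, edgeR adjusted p = 0.0011). At day 1 the libraries held 4.13, 6.11 and 4.27 CPM in PERK KO libraries, against 25.8, 27.3 and 27.6 CPM in wild-type libraries (log2 fold change -2.48 ± 0.20, edgeR adjusted p = 1.29e-10). At day 2 it stood at 7.57, 10.5 and 9.11 CPM in PERK KO libraries, against 108, 133 and 170.0 CPM in wild-type libraries (log2 fold change -3.92 ± 0.21, edgeR adjusted p = 7.85e-16). PERK KO libraries thus kept below 13 CPM at all of these days while wild-type libraries climbed. The day 3 libraries held 5.37, 6.83 and 5.94 CPM in PERK KO libraries, against 155, 173 and 214 CPM in wild-type libraries (log2 fold change -4.90 ± 0.22, edgeR adjusted p = 5.93e-18). At day 5 the values were 3.73, 3.62 and 4.09 CPM in PERK KO libraries, against 244, 190.0 and 188 CPM in wild-type libraries (log2 fold change -5.76 ± 0.23, edgeR adjusted p = 3.89e-19). By day 10 TGFB1 had 9.12, 6.48 and 8.66 CPM in PERK KO libraries, against 221, 288 and 342 CPM in wild-type libraries (log2 fold change -5.13 ± 0.22, edgeR adjusted p = 2.39e-18). The groups overlapped at no day, and from day 2 the lowest wild-type library was far above the highest PERK KO library. In wild type TGFB1 rose by 3.81 ± 0.20 on the log2 scale by day 10, while in PERK KO cells it was -0.42 ± 0.20 from day 0 and not called. Its day 0 call ended in a fit of only the 6 libraries of that day (log2 fold change -0.91, adjusted p = 0.0722). Of its exon bases 6.64% overlap HNRNPUL1 on the opposite strand, which averaged 411 CPM, and the sources used here do not say whether strand was used in counting.

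TGFB2 and TGFB3, the other TGF-beta ligands, did not differ by test at days 0 and 1, and all 3 TGF-beta ligands were lower in PERK KO cells at days 3, 5 and 10. TGFB2 at day 5 had 5.57, 3.46 and 4.29 CPM in PERK KO libraries, against 132, 141 and 158 CPM in wild-type libraries (log2 fold change -5.01 ± 0.39, edgeR adjusted p = 2.3e-12). By day 10 it stood at 18.9, 7.2 and 16.3 CPM in PERK KO libraries, against 274, 160.0 and 153 CPM in wild-type libraries (log2 fold change -3.79 ± 0.36, edgeR adjusted p = 1.78e-10). PERK KO cells thus gained TGFB2 late, by 4.26 ± 0.46 from day 0 to day 10 on the log2 scale, and wild type by 7.66 ± 0.47. TGFB3 at day 10 had 1.78, 0.881 and 1.29 CPM in PERK KO libraries, against 14.7, 16.1 and 20.3 CPM in wild-type libraries (log2 fold change -3.68 ± 0.26, edgeR adjusted p = 2.98e-13). It was also lower at days 2, 3 and 5 (-2.79 ± 0.30, -1.57 ± 0.30 and -3.55 ± 0.31), without overlap. Per length, TGFB1 was the most abundant of the 3 in wild type at day 10, at 141 ± 15.1 TPM, above TGFB2 at 66.4 ± 29.8 and TGFB3 at 13.2 ± 2.08 TPM. In PERK KO cells at that day TGFB1 and TGFB2 stood at 4.99 ± 0.921 and 6.73 ± 2.97 TPM, within their spread of each other, and TGFB3 at 1.61 ± 1.03 TPM. TGFB2 counts were fractional in 27 of 36 libraries, as the estimation gives where reads are shared among genes, so its values are less certain.

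NODAL (ENSG00000156574.9, GRCh38 chromosome 10, 70432315 to 70447951, minus strand), the ligand of streak formation and left-right asymmetry, was present in both genotypes at day 0 and changed direction relative to wild type more than once. At day 1 NODAL had 192, 225 and 191 CPM in PERK KO libraries, against 382, 386 and 373 CPM in wild-type libraries (log2 fold change -0.91 ± 0.28, edgeR adjusted p = 0.0232). At day 2 the order of the genotypes was turned, with 33.5, 42.9 and 37.1 CPM in PERK KO libraries, against 13, 11.1 and 15.9 CPM in wild-type libraries (log2 fold change 1.5 ± 0.29, edgeR adjusted p = 0.000115). By day 5 it had 1.38, 1.95 and 1.63 CPM in PERK KO libraries, against 212, 158 and 188 CPM in wild-type libraries (log2 fold change -6.81 ± 0.38, edgeR adjusted p = 9.2e-16). NODAL thus peaked at day 1 in both genotypes, and only the wild-type libraries held a second peak at day 5, with no overlap from day 1 on. At day 10, low in both, it had 0.786, 0.518 and 0.862 CPM in PERK KO libraries, against 6.77, 9.85 and 11.1 CPM in wild-type libraries (log2 fold change -3.65 ± 0.39, edgeR adjusted p = 1.82e-09), and at day 3 it was lower in PERK KO cells by test as well (-3.50 ± 0.33). The day 1 call ended when wild-type replicate 1 or 2, or PERK KO replicate 1 or 3, was left out (log2 fold change -0.90, -0.90, -0.87 and -0.87). NODAL counts were fractional in 35 of 36 libraries, and 41.2% of its exon bases overlap AC022532.1 on the opposite strand (mean 2.2 CPM).

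GDF3, a NODAL-related ligand of pluripotent cells, was like NODAL higher in PERK KO cells at day 2 and lower at days 3 and 5. GDF3 at day 2 stood at 8.83, 11.6 and 11.7 CPM in PERK KO libraries, against 1.23, 1.45 and 3.27 CPM in wild-type libraries (log2 fold change 2.42 ± 0.33, edgeR adjusted p = 3.94e-07). At day 5 GDF3 had 1.55, 0.756 and 1.07 CPM in PERK KO libraries, against 14.6, 9.62 and 13 CPM in wild-type libraries (log2 fold change -3.46 ± 0.35, edgeR adjusted p = 6.91e-10). The libraries overlapped at neither day. Its day 3 value was -1.10 ± 0.32, and -0.62 and no longer called without wild-type replicate 3. At day 0 GDF3 had 5.31, 7.72 and 7.3 CPM in PERK KO libraries, against 15.2, 12.7 and 9.6 CPM in wild-type libraries (log2 fold change -0.89 ± 0.30, edgeR adjusted p = 0.033), a call that ended without wild-type replicate 1 or 2 or PERK KO replicate 1 (-0.72, -0.88 and -0.74). At day 2 pluripotency markers, like NODAL and GDF3, were higher in PERK KO cells than in wild type. The 8 genes summed to 6570 to 6970 TPM in PERK KO libraries and 2380 to 2800 TPM in wild type. All 8 were at 1 TPM or more in both. They were also higher at day 5, when NODAL and GDF3 were lower, at 4650 to 4920 TPM in PERK KO libraries and 674 to 772 TPM in wild type. Their part in these results was not tested. INHBB, the beta B subunit of activin, was high in a single group: at day 2 it had 0.165, 0.0536 and 0 CPM in PERK KO libraries, against 30.2, 32 and 34.1 CPM in wild-type libraries (log2 fold change -8.73 ± 0.47, edgeR adjusted p = 7.91e-14). That fitted fold rests on 4 PERK KO reads and was -9.98 without PERK KO replicate 1 and -8.12 without replicate 3. At day 5 all 3 wild-type libraries had 0 reads and the PERK KO libraries 39 reads in all, at least 13.2-fold higher (floor of 3 reads over the group). At day 1 INHBB was 16.6-fold higher in wild type (95% counting interval 4.28 to 142, from 2 reads in PERK KO libraries and 37 in wild-type libraries). INHBB at day 3 was higher in PERK KO cells (1.32 ± 0.40, 1.07 and not called without wild-type replicate 1). INHBA, the beta A subunit, stayed under 3 CPM in every library and was lower in PERK KO cells at day 10 (log2 fold change -2.67 ± 0.59, edgeR adjusted p = 0.000277).

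BMP2 (ENSG00000125845.6, GRCh38 chromosome 20, 6767664 to 6780280, plus strand), made by early mesoderm and heart-forming cells, rose in both genotypes by day 1 and stayed lower in PERK KO cells at every later day. BMP2 at day 1 stood at 14, 16 and 10.0 CPM in PERK KO libraries, against 146, 141 and 137 CPM in wild-type libraries (log2 fold change -3.41 ± 0.19, edgeR adjusted p = 8.64e-14). At day 2 BMP2 had 8.01, 8.69 and 7.28 CPM in PERK KO libraries, against 275, 294 and 315 CPM in wild-type libraries (log2 fold change -5.20 ± 0.21, edgeR adjusted p = 1.87e-18). Day 3 gave 10.4, 8.56 and 8.52 CPM in PERK KO libraries, against 248, 297 and 241 CPM in wild-type libraries (log2 fold change -4.84 ± 0.20, edgeR adjusted p = 2.3e-18). The genotypes were apart by a wide margin at each of these days. By day 10 BMP2 had 37, 27.6 and 38.8 CPM in PERK KO libraries, against 337, 278 and 373 CPM in wild-type libraries (log2 fold change -3.26 ± 0.19, edgeR adjusted p = 2.15e-15). No PERK KO library reached a wild-type library from day 1 on, although at day 0 the genotypes overlapped (log2 fold change 0.17 ± 0.30, edgeR adjusted p = 0.742). From day 0 to day 10 BMP2 rose by 4.87 ± 0.23 in PERK KO cells and by 8.29 ± 0.26 in wild type on the log2 scale.

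BMP4 (ENSG00000125378.15, GRCh38 chromosome 14, 53949736 to 53958761, minus strand), the mesoderm-inducing BMP, did not differ by test at days 0 and 1 and then rose in wild type from day 2. BMP4 at day 1 stood at 4.64, 4.46 and 3.88 CPM in PERK KO libraries, against 4.58, 4.04 and 2.5 CPM in wild-type libraries (log2 fold change 0.21 ± 0.22, edgeR adjusted p = 0.601). At day 2 BMP4 had 5.81, 7.46 and 7.89 CPM in PERK KO libraries, against 97.7, 110.0 and 141 CPM in wild-type libraries (log2 fold change -4.04 ± 0.21, edgeR adjusted p = 6.89e-16). The PERK KO libraries had risen slightly by then, and the wild-type libraries stood far above them. BMP4 at day 3 stood at 7.96, 8.83 and 7.57 CPM in PERK KO libraries, against 355, 367 and 400.0 CPM in wild-type libraries (log2 fold change -5.52 ± 0.22, edgeR adjusted p = 1e-18). At day 10 BMP4 had 41.9, 26.5 and 52.4 CPM in PERK KO libraries, against 71.4, 73 and 78.1 CPM in wild-type libraries (log2 fold change -0.88 ± 0.19, edgeR adjusted p = 0.000125). The groups were apart at each day from day 2, and the fold was largest of the 6 days at day 3. At day 5 BMP4 averaged 21.9 ± 2.51 CPM in PERK KO cells and 521 ± 24.4 CPM in wild type (SD, n = 3 each), so the smaller fold at day 10 goes with a lower wild-type mean and a higher PERK KO mean. BMP5, a relative of BMP6 and BMP7, had 2 reads summed over the PERK KO libraries at day 3, against 807 reads over the wild-type libraries, 419-fold higher in wild type (95% counting interval 116 to 3470, edgeR adjusted p = 5.44e-11). The fitted log2 fold change of BMP5 was -8.39 ± 0.72, and -7.71 without wild-type replicate 1 and -10.92 without PERK KO replicate 2. The 3 PERK KO libraries held 0, 0.0887 and 0 CPM, against 22.6, 8.55 and 7.85 CPM in wild type. At day 5 BMP5 had 0.172, 0.216 and 0.204 CPM in PERK KO libraries, against 78.8, 72.9 and 102 CPM in wild-type libraries (log2 fold change -8.69 ± 0.57, edgeR adjusted p = 1.12e-13). By day 10 PERK KO libraries had reached 4.56, 1.35 and 5.26 CPM, against 129, 70.4 and 73.7 CPM in wild type (log2 fold change -4.60 ± 0.41, edgeR adjusted p = 8.15e-11), with no overlap.

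BMP6 and BMP7, which signal mainly through ACVR1, were the BMP ligands that stood higher in PERK KO cells at days 3 and 5. BMP7 at day 5 had 42.6, 40.8 and 35.8 CPM in PERK KO libraries, against 18.6, 19.1 and 20.9 CPM in wild-type libraries (log2 fold change 1.02 ± 0.16, edgeR adjusted p = 2.17e-06). At day 10 the order was the other way, with 34, 38.4 and 35.8 CPM in PERK KO libraries, against 119, 122 and 175 CPM in wild-type libraries (log2 fold change -1.94 ± 0.16, edgeR adjusted p = 6.88e-12). The libraries overlapped at neither day, and at day 3 BMP7 was 0.79 ± 0.16 higher. BMP6 was 1.46 ± 0.36 and 1.09 ± 0.36 higher at days 3 and 5 and -0.76 ± 0.32 at day 10. Its day 5 call ended without wild-type replicate 1 (0.95), and its day 10 call without wild-type replicate 1 or 2 or PERK KO replicate 3 (-0.79, -0.47 and -0.60), with an offset for effective transcript length, here called the length offset (-0.69), or with a stricter filter on low counts (-0.70). Of the 5 BMP ligands, none was called at day 0, BMP2 alone at day 1, and all 5 at days 3, 5 and 10. At day 2, when only BMP2 and BMP4 of these ligands were called, streak and early mesoderm markers were lower in PERK KO cells. The 8 genes measured then summed to 144 to 194 TPM in PERK KO libraries and 3410 to 3620 TPM in wild type. At day 3 they summed to 19.9 to 22.9 TPM in PERK KO libraries and 969 to 1230 TPM in wild type. At day 5 the sums were 8.99 to 10.0 TPM in PERK KO libraries and 422 to 452 TPM in wild type. The markers were thus also lower at the days when BMP6 and BMP7 were higher. MSGN1 was at 0 in all PERK KO libraries of days 0, 3 and 5. In wild type it was at 0 in all libraries of days 0, 5 and 10. The part of these markers in the ligand results was not tested. In bulk RNA, fewer cells of a type and less RNA per cell cannot be told apart.

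**Figure D2:**
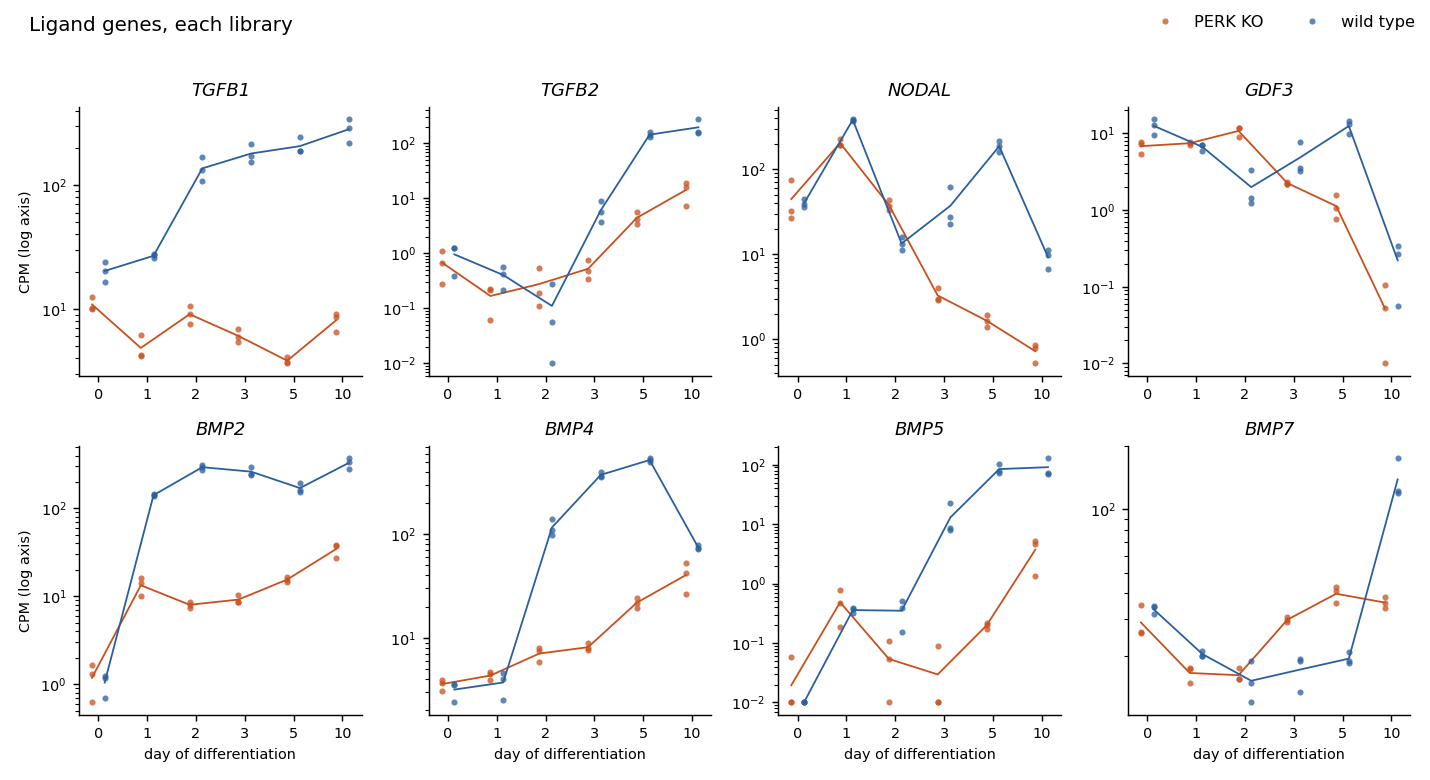
CPM of 8 ligand genes in each library (points, log axis, values under 0.01 drawn at 0.01) at each day, PERK KO in orange and wild type in blue, with lines through the group means. TGFB1 lies apart at all 6 days, BMP2 from day 1, BMP4 from day 2 and BMP5 widely from day 3, while NODAL and GDF3 are called higher in PERK KO cells at day 2 only and BMP7 crosses between days 5 and 10.

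The type I receptors differed by less in fold than most ligands. Of the 5, 2 were higher and 2 lower in PERK KO cells at days 2 and 10, and 1 was higher and 1 lower at days 3 and 5. ACVR1 (ALK2), a BMP receptor, was the one called lower at every day after day 0, though its day 10 call depended on the setting, and at day 5 it had 12, 10.3 and 11.2 CPM in PERK KO libraries, against 36.1, 34.4 and 37.7 CPM in wild-type libraries (log2 fold change -1.69 ± 0.13, edgeR adjusted p = 1.86e-12). ACVR1 at day 1 stood at 4.01, 5.01 and 5.53 CPM in PERK KO libraries, against 11.2, 11.8 and 10.7 CPM in wild-type libraries (log2 fold change -1.21 ± 0.14, edgeR adjusted p = 8.08e-08). The libraries overlapped at neither day. Its day 10 value was small (-0.33 ± 0.13) and its call ended without wild-type replicate 3 or PERK KO replicate 2 (-0.22 and -0.27). The day 10 call of ACVR1 also ended with the length offset (-0.17, adjusted p = 0.272), with no filter and with a stricter filter on low counts (-0.32 and -0.27), and in the fits of the 6 libraries of the day without and with a replicate block (-0.27 in both). TGFBR1 (ALK5), the TGF-beta type I receptor, was called at day 10 only, with 177, 186 and 162 CPM in PERK KO libraries, against 50.9, 28.9 and 22.8 CPM in wild-type libraries (log2 fold change 2.35 ± 0.28, edgeR adjusted p = 1.45e-08). BMPR1B (ALK6), the BMP receptor of cartilage and neural tissue, was low, and higher in PERK KO cells at days 2, 5 and 10. At day 10 BMPR1B had 3.46, 3.89 and 3.58 CPM in PERK KO libraries, against 0.403, 0.405 and 0.335 CPM in wild-type libraries (log2 fold change 3.23 ± 0.36, edgeR adjusted p = 5.29e-09), without overlap. At day 5 its 2.56 ± 0.45 became 1.25, and was no longer called, with the length offset, and it was 3.15 without wild-type replicate 2. BMPR1A (ALK3) was 0.98 ± 0.21 at day 2, higher in PERK KO cells, and 0.55 ± 0.21 at day 3, a call that ended without wild-type replicate 2 or 3 or PERK KO replicate 1 (0.54, 0.32 and 0.46), with the length offset (0.56) or in a fit of the 6 libraries (0.53), and its counts were fractional in 24 of 36 libraries. ACVR1B (ALK4), the activin and NODAL receptor, was lower at day 10 (log2 fold change -0.85 ± 0.13, edgeR adjusted p = 1.61e-06) and at day 2 (-0.36 ± 0.13), where the call ended without wild-type replicate 3 or PERK KO replicate 1 or 2 (-0.26, -0.33 and -0.37), with the length offset (-0.25), with no filter on low counts (-0.38) and in fits of the 6 libraries (-0.33 without and with a replicate block).

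Among the type II receptors, ACVR2B, which binds activin and NODAL, was called at no day and had 49.0 to 220.0 CPM over all libraries. The lowest of these was PERK KO day 0 replicate 2, which stood apart, against 152 and 159 CPM in the other PERK KO libraries of that day. BMPR2, the BMP type II receptor, was lower at days 3, 5 and 10. BMPR2 at day 5 stood at 33.2, 28.9 and 34 CPM in PERK KO libraries, against 76.4, 82.5 and 74.8 CPM in wild-type libraries (log2 fold change -1.28 ± 0.24, edgeR adjusted p = 2.79e-05), without overlap. TGFBR3, or betaglycan, which presents TGF-beta 2 to its receptors, was lower at day 2, with 6.69, 5.79 and 5.31 CPM in PERK KO libraries, against 37.7, 36.7 and 13.5 CPM in wild-type libraries (log2 fold change -2.30 ± 0.32, edgeR adjusted p = 5.97e-07). By day 5 it was higher, with 15.8, 15 and 16.8 CPM in PERK KO libraries, against 2.47, 4.37 and 3.88 CPM in wild-type libraries (log2 fold change 2.14 ± 0.33, edgeR adjusted p = 1.75e-06). Wild-type replicate 3 was the lowest of its group at day 2, and still above the PERK KO libraries. At day 1 TGFBR3 was -1.11 ± 0.35, a call that ended without wild-type replicate 1 or 2 or PERK KO replicate 1 or 3 (-1.07, -1.11, -1.0 and -1.07) or with the length offset (-1.22). ACVR2A, an activin receptor with fractional counts in 34 libraries, was lower at day 3 (-0.88 ± 0.21), and TGFBR2, the TGF-beta type II receptor, at day 10 (-0.63 ± 0.18). Per length, 4 of the 10 receptors led in PERK KO cells at day 5: BMPR1A at 34.7 ± 3.05, ACVR1B at 27.8 ± 1.91, ACVR2B at 26.3 ± 0.919 and TGFBR1 at 22.7 ± 1.34 TPM, with ACVR1 at 6.26 ± 0.492 TPM. In wild type these were 21 ± 4.56, 21.2 ± 1.51, 20.6 ± 4.66, 16 ± 3.15 and 18.2 ± 1.26 TPM, neighbours in order lying within their spread of each other.

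**Figure D3:**
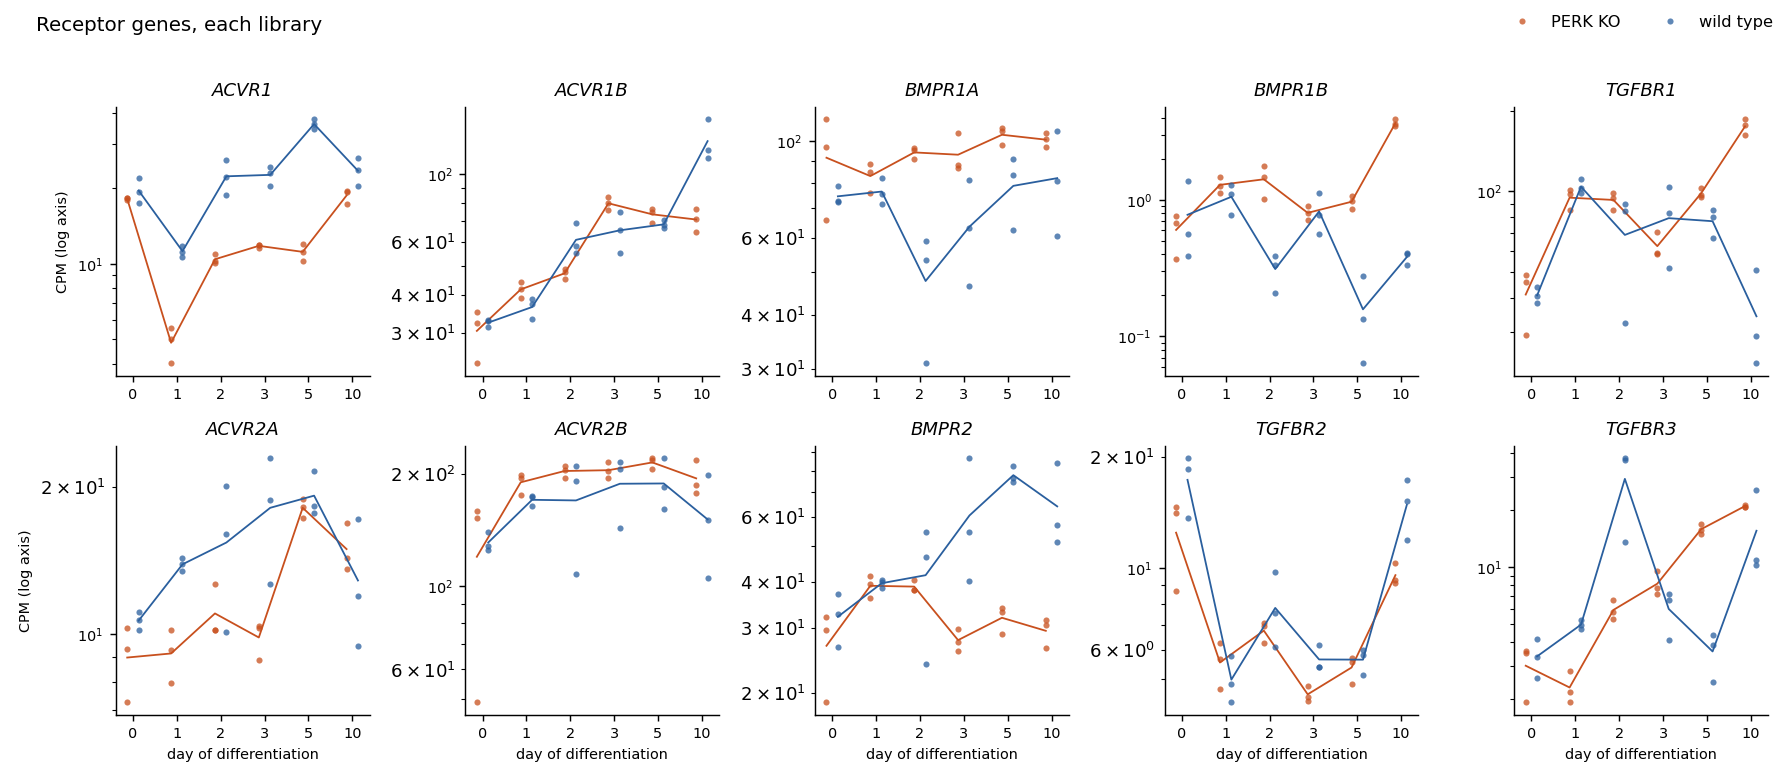
CPM of the 10 receptor genes in each library (points, log axis) at each day, PERK KO in orange and wild type in blue, with lines through the group means. ACVR1 lies lower in PERK KO cells from day 1 and BMPR2 from day 3, TGFBR1 and BMPR1B lie higher at day 10, and ACVR2B overlaps at every day but day 1.

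Of the 6 SMADs that carry the signal, 1 was higher and 3 lower in PERK KO cells at day 5, and 2 were higher and 2 lower at day 10. SMAD9, a BMP SMAD, had the largest folds of the 6 at days 2, 3, 5 and 10. At day 5 SMAD9 had 1.9, 2.49 and 2.35 CPM in PERK KO libraries, against 18.6, 25.4 and 24.6 CPM in wild-type libraries (log2 fold change -3.34 ± 0.28, edgeR adjusted p = 9.79e-12). SMAD9 at day 10 stood at 12.4, 8.96 and 12.5 CPM in PERK KO libraries, against 82.4, 61.9 and 47 CPM in wild-type libraries (log2 fold change -2.50 ± 0.25, edgeR adjusted p = 5.19e-10). It was lower at days 2 and 3 as well (-2.48 ± 0.31 and -2.71 ± 0.29), with no overlap at any of these days. At day 0 its -1.16 ± 0.39 was called, and the call ended without wild-type replicate 2 or 3 or PERK KO replicate 1 or 2 (-1.01, -1.18, -1.03 and -1.01). SMAD1, the main BMP SMAD of early embryos, was lower at day 1 (log2 fold change -0.90 ± 0.19, edgeR adjusted p = 0.00073) and higher at day 10 (log2 fold change 0.90 ± 0.19, edgeR adjusted p = 0.000132). SMAD3, which carries activin, NODAL and TGF-beta signals, was lower from day 3. At day 3 SMAD3 had 39, 40.9 and 46.4 CPM in PERK KO libraries, against 115, 129 and 156 CPM in wild-type libraries (log2 fold change -1.66 ± 0.16, edgeR adjusted p = 1.87e-10), and at days 5 and 10 it was -1.62 ± 0.16 and -0.91 ± 0.15. SMAD3 at day 1 was 0.45 ± 0.15 higher, and that call ended when any 1 of the 6 day 1 libraries was left out (0.39 to 0.49) or no filter on low counts was used (0.45).

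SMAD2, SMAD4 and SMAD5 differed by less than 1 log2 unit at every day. SMAD4, the shared partner of all signal-carrying SMADs, was higher in PERK KO cells at day 0, with 96, 90.9 and 91.7 CPM in PERK KO libraries, against 63.3, 64.8 and 66.9 CPM in wild-type libraries (log2 fold change 0.52 ± 0.14, edgeR adjusted p = 0.00949). These libraries did not overlap, but the call ended with an offset for effective length (0.46) and in a fit of the 6 libraries (0.51). It was also called at day 2 (0.39 ± 0.14, ended without wild-type replicate 3 or PERK KO replicate 1 or 3, at 0.23, 0.39 and 0.35). With the length offset the day 2 value was 0.06 (adjusted p = 0.835), and the call also ended with no filter on low counts (0.38) and in the fits of the 6 libraries without and with a replicate block (0.41 and 0.43). SMAD4 was called once more at day 5 (0.41 ± 0.14, 0.32 without wild-type replicate 1). SMAD2, the activin and NODAL SMAD, was -0.53 ± 0.21 at day 2 with overlapping libraries and -0.51 ± 0.21 at day 5. Leaving out any 1 of the 6 libraries of day 5 ended that call (-0.56 to -0.42), as did leaving out any but wild-type replicate 3 at day 2 (-0.54 to -0.33). A stricter filter on low counts ended the day 5 call (-0.48), and fits of the 6 libraries without and with a replicate block the day 2 call (-0.51 and -0.42). SMAD5, a BMP SMAD, was higher at day 10 only (0.81 ± 0.31), and that call ended without wild-type replicate 2 or 3 or PERK KO replicate 3 (0.82, 0.58 and 0.77) or with the length offset (0.60). SMAD4 and SMAD5 counts were fractional in 32 and 9 libraries.

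The inhibitory SMADs, SMAD6 for BMP and SMAD7 for TGF-beta and BMP signalling, are themselves induced by the pathway and block it at the receptor. Both were lower in PERK KO cells from day 1 on, and SMAD7 also at day 0. SMAD6 (ENSG00000137834.14, GRCh38 chromosome 15, 66702228 to 66782848, plus strand) at day 2 had 9.27, 9.33 and 7.94 CPM in PERK KO libraries, against 88.9, 91.2 and 124 CPM in wild-type libraries (log2 fold change -3.52 ± 0.20, edgeR adjusted p = 5.38e-15). SMAD6 at day 3 stood at 15, 16.4 and 18.2 CPM in PERK KO libraries, against 401, 432 and 507 CPM in wild-type libraries (log2 fold change -4.76 ± 0.21, edgeR adjusted p = 5.68e-18). Wild type thus gained SMAD6 from day 2. At day 5 SMAD6 had 26, 24.6 and 23.8 CPM in PERK KO libraries, against 699, 656 and 635 CPM in wild-type libraries (log2 fold change -4.74 ± 0.21, edgeR adjusted p = 5e-18). SMAD6 at day 10 stood at 42.6, 32.1 and 44.5 CPM in PERK KO libraries, against 462, 443 and 567 CPM in wild-type libraries (log2 fold change -3.63 ± 0.20, edgeR adjusted p = 6.16e-16). The other inhibitory SMAD was apart already in undifferentiated cells. SMAD7 at day 0 had 33.6, 31.7 and 32.4 CPM in PERK KO libraries, against 48.3, 67.1 and 66.6 CPM in wild-type libraries (log2 fold change -0.90 ± 0.15, edgeR adjusted p = 4.78e-05). At day 1 SMAD7 had 11.9, 12 and 8.97 CPM in PERK KO libraries, against 29.4, 26.7 and 29.9 CPM in wild-type libraries (log2 fold change -1.39 ± 0.15, edgeR adjusted p = 3.44e-08). No PERK KO library reached a wild-type library for SMAD6 from day 1 or for SMAD7 at any of the 6 days. By day 10 SMAD7 had 24.4, 22.2 and 25.3 CPM in PERK KO libraries, against 280.0, 285 and 302 CPM in wild-type libraries (log2 fold change -3.59 ± 0.16, edgeR adjusted p = 4.95e-18). SMAD7 fell in PERK KO cells from day 0 to every later day (lowest at day 2, -2.11 ± 0.15 on the log2 scale), while in wild type it was above day 0 at days 5 and 10. The day 1 call of SMAD6, -0.69 ± 0.20, ended without wild-type replicate 3 or PERK KO replicate 2 or 3 (-0.63, -0.64 and -0.69). The SMAD7 day 0 call ended in a fit of only the 6 day 0 libraries (-0.90, adjusted p = 0.0639). Cardiomyocyte markers were, like the inhibitory SMADs, lower in PERK KO cells at day 5. The 9 genes summed to 23.9 to 31.7 TPM in PERK KO libraries (6 at 1 TPM or more). In wild type they summed to 4810 to 7160 TPM (8 at 1 TPM or more). At day 2, when both inhibitory SMADs were already lower, the sums overlapped. They were 7.99 to 10.9 TPM in PERK KO libraries and 9.82 to 14.0 TPM in wild type. The part of these markers in the SMAD results was not tested.

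The NODAL antagonists LEFTY1, LEFTY2 and CER1, secreted proteins that are themselves NODAL targets, did not move together: 1 was higher and 2 lower in PERK KO cells at day 2, and 2 were higher and 1 lower at day 5. LEFTY2 (ENSG00000143768.12, GRCh38 chromosome 1, 225936598 to 225941489, minus strand) at day 5 had 2.87, 2.49 and 3.99 CPM in PERK KO libraries, against 121, 81.7 and 120.0 CPM in wild-type libraries (log2 fold change -5.10 ± 0.29, edgeR adjusted p = 1.46e-15). LEFTY2 at day 10 stood at 1.36, 0.518 and 1.64 CPM in PERK KO libraries, against 14.8, 14.6 and 23.5 CPM in wild-type libraries (log2 fold change -3.88 ± 0.30, edgeR adjusted p = 1.75e-12). All 3 wild-type libraries were above all PERK KO libraries at both days, and the high wild-type level of day 5 fell on the day of the second NODAL peak. LEFTY2 was also lower at day 2 (-0.78 ± 0.24). LEFTY1 at day 3 had 5.7, 5.63 and 4.48 CPM in PERK KO libraries, against 0.63, 0.777 and 0.897 CPM in wild-type libraries (log2 fold change 2.78 ± 0.37, edgeR adjusted p = 2.04e-07). At day 3 the pluripotency markers summed to 6180 to 6460 TPM in PERK KO libraries (all 8 at 1 TPM or more) and 952 to 1050 TPM in wild type (7 at 1 TPM or more), and like LEFTY1 they were higher at days 2 and 5 too, as given above. Their part in the LEFTY1 results was not tested. LEFTY1 at day 2 was 0.79 ± 0.27 higher (not called without wild-type replicate 1 or 2 or PERK KO replicate 2, at 0.69, 0.73 and 0.72). At day 5 it was 1.20 ± 0.50 higher with overlapping libraries (not called without wild-type replicate 3 or PERK KO replicate 1 or 3, at 0.84, 0.92 and 1.06, or with the length offset, at 1.04). Both LEFTY genes had fractional counts in 34 of 36 libraries, and they are close relatives, so the split of reads between them is uncertain. CER1, which binds NODAL and BMPs, peaked at day 2 in both genotypes, with 194, 249 and 219 CPM in PERK KO libraries, against 671, 720.0 and 412 CPM in wild-type libraries (log2 fold change -1.45 ± 0.27, edgeR adjusted p = 7.09e-05). At day 1 CER1 had 5.09, 5.99 and 4.09 CPM in PERK KO libraries, against 28.3, 25.7 and 32 CPM in wild-type libraries (log2 fold change -2.51 ± 0.30, edgeR adjusted p = 2.61e-07). The groups overlapped at neither of these days. CER1 was then higher in PERK KO cells at day 3 (1.06 ± 0.30, 0.76 and not called without wild-type replicate 3). At day 5 it was 0.77 ± 0.33 higher, a call that ended without PERK KO replicate 1 or 3 (0.77 and 0.65) or any 1 wild-type library (0.60 to 0.89), or with the length offset (0.79).

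BMPER (ENSG00000164619.9, GRCh38 chromosome 7, 33904308 to 34156356, plus strand), a secreted protein that binds BMPs outside the cell, had the strongest interaction of genotype and day among the 44. BMPER at day 1 stood at 3.22, 2.63 and 2.74 CPM in PERK KO libraries, against 2.29, 1.26 and 2.34 CPM in wild-type libraries (log2 fold change 0.53 ± 0.22, edgeR adjusted p = 0.0957). At day 2 BMPER had 1.92, 1.77 and 1.64 CPM in PERK KO libraries, against 46.5, 41 and 44.1 CPM in wild-type libraries (log2 fold change -4.62 ± 0.21, edgeR adjusted p = 2.86e-17). The day 1 difference did not pass the test, and the day 2 groups were far apart. BMPER at day 3 stood at 2.54, 1.77 and 1.74 CPM in PERK KO libraries, against 459, 473 and 463 CPM in wild-type libraries (log2 fold change -7.84 ± 0.23, edgeR adjusted p = 3.15e-21). At day 5 BMPER had 4.6, 6.48 and 4.24 CPM in PERK KO libraries, against 452, 484 and 510.0 CPM in wild-type libraries (log2 fold change -6.56 ± 0.21, edgeR adjusted p = 8.53e-21). The wild-type libraries of days 3 and 5 overlapped. BMPER at day 10 stood at 9.49, 5.75 and 6.94 CPM in PERK KO libraries, against 145, 171 and 161 CPM in wild-type libraries (log2 fold change -4.43 ± 0.19, edgeR adjusted p = 5.06e-18). From day 2 on every wild-type library was far above every PERK KO library. Per length, BMPER was at 0.87 ± 0.197 TPM in PERK KO cells and 211 ± 26.8 TPM in wild type at day 3, and BMP4, which it binds, at 7.35 ± 0.76 TPM in PERK KO cells and 354 ± 22.1 TPM in wild type. CHRD (chordin), another extracellular BMP trap, at day 3 had 2.73, 3.33 and 2.52 CPM in PERK KO libraries, against 38.3, 40.0 and 46.6 CPM in wild-type libraries (log2 fold change -3.86 ± 0.20, edgeR adjusted p = 1.3e-16). At day 5 CHRD had 1.03, 1.62 and 1.38 CPM in PERK KO libraries, against 34.1, 29.9 and 29.2 CPM in wild-type libraries (log2 fold change -4.52 ± 0.21, edgeR adjusted p = 1.72e-17). It was lower at days 2 and 10 as well (-1.65 ± 0.21 and -1.91 ± 0.18), with no overlap.

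BAMBI, a membrane decoy that resembles a type I receptor without a kinase, was lower at every day after day 0. BAMBI at day 1 stood at 7.52, 7.57 and 6.71 CPM in PERK KO libraries, against 36.1, 28.6 and 30.9 CPM in wild-type libraries (log2 fold change -2.14 ± 0.26, edgeR adjusted p = 3.81e-07). At day 2 BAMBI had 7.95, 8.74 and 8.03 CPM in PERK KO libraries, against 60.6, 61.6 and 79 CPM in wild-type libraries (log2 fold change -3.02 ± 0.27, edgeR adjusted p = 8.87e-11). BAMBI at day 5 stood at 7.7, 6.97 and 9.09 CPM in PERK KO libraries, against 363, 328 and 428 CPM in wild-type libraries (log2 fold change -5.56 ± 0.30, edgeR adjusted p = 3.24e-16). Without overlap at these days, its wild-type level rose by 4.15 ± 0.27 from day 0 to day 5 on the log2 scale, and its PERK KO level fell by 0.91. NOG (noggin) stayed under 3 CPM until day 5. At day 2 the PERK KO libraries had 0 reads and the wild-type libraries 21, at least 7.38-fold higher in wild type, and at day 5 it was lower in PERK KO cells (log2 fold change -3.26 ± 0.47, edgeR adjusted p = 8.77e-07). By day 10 NOG had 10.4, 9.38 and 10.6 CPM in PERK KO libraries, against 9.99, 7.96 and 12.8 CPM in wild-type libraries, overlapping levels (log2 fold change -0.02 ± 0.31, edgeR adjusted p = 0.973). At day 1 its -2.30 ± 0.64 was called, and the call ended without wild-type replicate 1 or 3 or PERK KO replicate 2 or 3 (-2.11, -2.05, -2.08 and -2.15). GREM1 (gremlin) stayed under 3 CPM at all days and was 17.2-fold higher in wild type at day 2 (95% counting interval 5.56 to 86.4, from 3 and 49 reads). It was lower in PERK KO cells at day 3 (-2.21 ± 0.59, -1.51 and not called without wild-type replicate 1). It was higher at day 5 (1.57 ± 0.49, not called without wild-type replicate 1, at 1.19, or with the length offset, at 1.28, and 2.26 without wild-type replicate 3). At day 0 it was also higher (2.56 ± 0.64, 1.77 and not called without PERK KO replicate 1, and 3.44 without wild-type replicate 3).

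FST (follistatin, ENSG00000134363.11, GRCh38 chromosome 5, 53480409 to 53487134, plus strand), which binds and blocks activin, was higher in PERK KO cells from day 1 to day 5. At day 1 FST had 362, 354 and 362 CPM in PERK KO libraries, against 229, 209 and 187 CPM in wild-type libraries (log2 fold change 0.79 ± 0.19, edgeR adjusted p = 0.00385). FST at day 3 stood at 57.2, 55.5 and 56.2 CPM in PERK KO libraries, against 3.42, 3.83 and 4.04 CPM in wild-type libraries (log2 fold change 3.90 ± 0.23, edgeR adjusted p = 2.78e-15). At day 10 the order was turned, with 22.9, 21.7 and 24.7 CPM in PERK KO libraries, against 48.6, 51.2 and 42.6 CPM in wild-type libraries (log2 fold change -1.04 ± 0.20, edgeR adjusted p = 3.15e-05). FST rose in both genotypes by day 1. By day 3 it was still 3.29 ± 0.22 above day 0 in PERK KO cells on the log2 scale, and at -0.15 ± 0.23, not called, in wild type. The libraries overlapped at no day after day 0. Of the 6 BMP and activin inhibitors, 1 was higher and 4 lower at day 3, and 2 were higher and 4 lower at day 5.

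**Figure D4:**
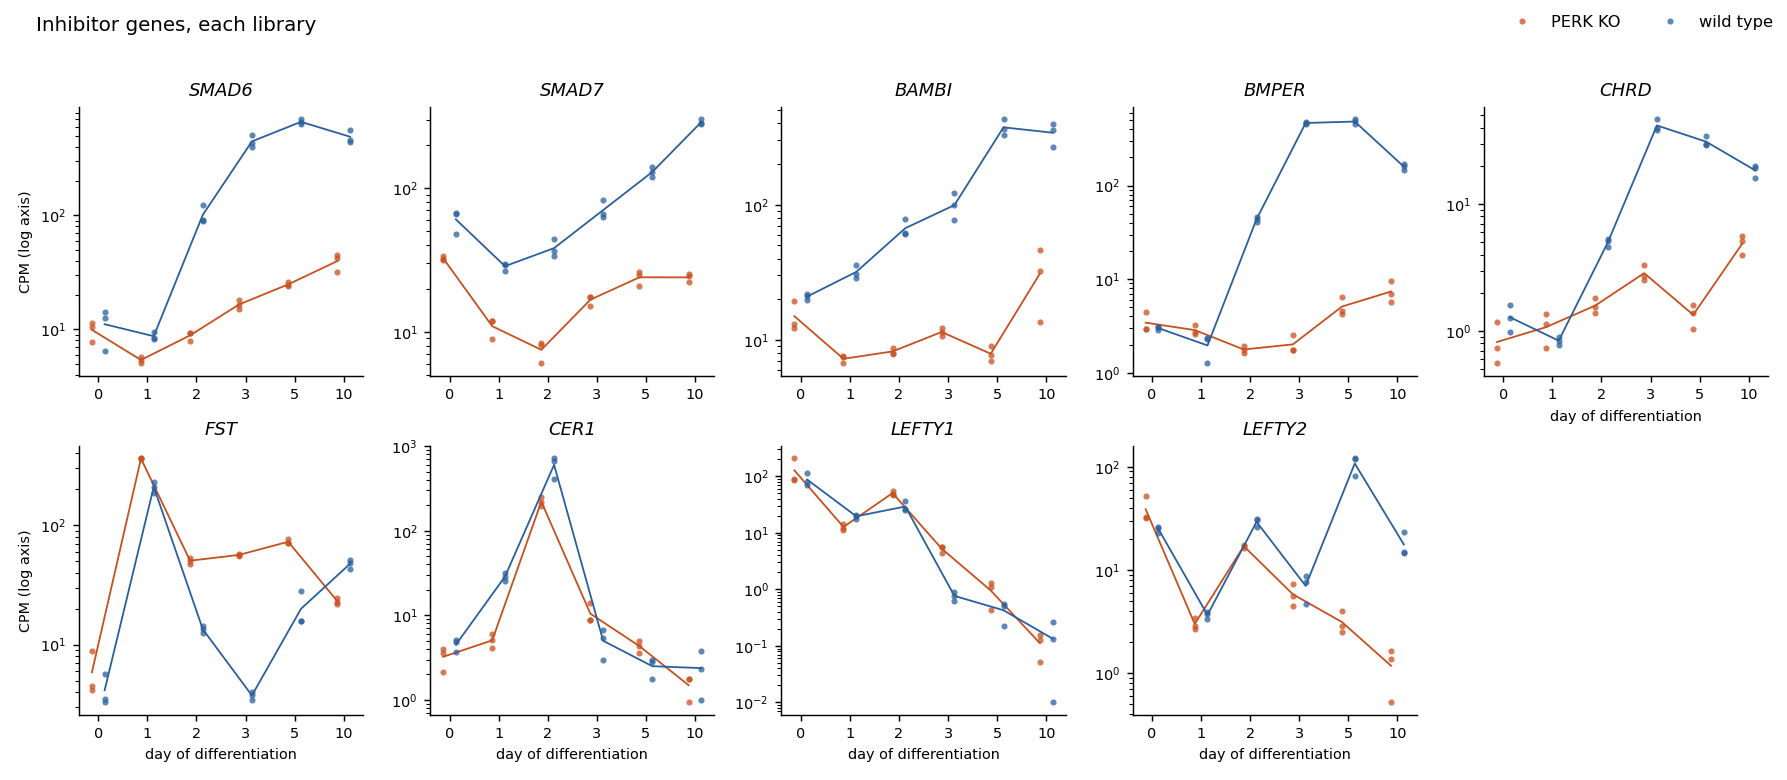
CPM of 9 inhibitor genes in each library (points, log axis, values under 0.01 drawn at 0.01) at each day, PERK KO in orange and wild type in blue, with lines through the group means. SMAD6, BMPER and CHRD lie apart at each day from day 2, FST is higher in PERK KO cells at days 1 to 5, and LEFTY2 has a day 5 peak in wild type only.

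Promoters of 4 of these inhibitors are shown because the inhibitors are known targets of the pathway and 3 of these genes, BMPER, BAMBI and SMAD6, were lower in PERK KO cells at all days from day 2, while CER1 was not. Sequences are from RefSeq (GRCh38.p14), 250 bases before to 50 after a start, and 39 of the 44 genes had at least 1 (70 promoters in all). Motifs were searched on both strands: the GC-rich SMAD box GGCGCC, the SMAD box CAGAC and a form of the FOXH1 box, AATNNACA. Capitals mark matches, and no 2 matches overlap in these 4 promoters.
BMPER (chr7:33904665-33904964, plus strand): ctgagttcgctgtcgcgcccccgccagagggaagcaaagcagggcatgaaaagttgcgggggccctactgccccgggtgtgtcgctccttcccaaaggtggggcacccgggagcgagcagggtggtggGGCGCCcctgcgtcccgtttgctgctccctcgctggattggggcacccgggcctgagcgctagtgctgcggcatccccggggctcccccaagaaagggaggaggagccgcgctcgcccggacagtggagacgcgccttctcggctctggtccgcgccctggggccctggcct
BAMBI (chr10:28677271-28677570, plus strand): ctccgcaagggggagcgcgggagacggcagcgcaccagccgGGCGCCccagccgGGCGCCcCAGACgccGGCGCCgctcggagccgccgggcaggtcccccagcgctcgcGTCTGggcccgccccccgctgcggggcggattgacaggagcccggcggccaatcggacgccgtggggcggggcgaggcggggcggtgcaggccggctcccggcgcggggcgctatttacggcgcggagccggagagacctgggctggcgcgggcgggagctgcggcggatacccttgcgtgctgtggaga
SMAD6 (chr15:66701986-66702285, plus strand): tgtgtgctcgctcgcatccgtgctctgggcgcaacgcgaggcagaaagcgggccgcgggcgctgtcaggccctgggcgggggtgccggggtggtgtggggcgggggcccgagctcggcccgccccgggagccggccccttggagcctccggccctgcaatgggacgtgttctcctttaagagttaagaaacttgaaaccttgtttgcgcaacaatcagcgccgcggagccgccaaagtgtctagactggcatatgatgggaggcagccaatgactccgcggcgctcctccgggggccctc
CER1 (chr9:14722684-14722983, minus strand): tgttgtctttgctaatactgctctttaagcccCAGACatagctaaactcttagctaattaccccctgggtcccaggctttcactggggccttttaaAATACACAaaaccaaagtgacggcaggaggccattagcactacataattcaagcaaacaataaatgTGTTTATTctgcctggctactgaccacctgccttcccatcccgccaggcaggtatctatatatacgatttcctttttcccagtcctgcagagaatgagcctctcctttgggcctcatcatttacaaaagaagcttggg
BAMBI holds 3 GC-rich boxes and 2 CAGAC boxes, BMPER 1 GC-rich box, CER1 1 CAGAC box and 2 FOXH1 boxes, and SMAD6 none of these letters in this window. RefSeq has a second BMPER start whose window (chr7:33905289-33905588, plus strand) holds 2 GC-rich boxes; the window of the start farther upstream is the one shown. Over all 35116 promoters of this length, 19.2% hold GGCGCC, 45.3% CAGAC and 11% AATNNACA, and among the 70 member promoters 18, 34 and 6 do. These are matches of letters, and binding was not measured.

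LTBP1, which holds TGF-beta in the matrix in its latent form, rose in both genotypes and less in PERK KO cells. At days 0 and 1 it was not called (0.35 ± 0.14 and 0.36 ± 0.14). Without the 2 libraries that stood apart it was called higher in PERK KO cells at both days (0.57 and 0.37, edgeR adjusted p = 0.00012 and 0.0026). At day 5 LTBP1 had 76.5, 77.8 and 73.8 CPM in PERK KO libraries, against 243, 245 and 264 CPM in wild-type libraries (log2 fold change -1.72 ± 0.14, edgeR adjusted p = 7.47e-12). It was lower at days 3 and 10 as well (-0.79 ± 0.14 and -0.79 ± 0.14), without overlap. From day 0 to day 10 it rose by 2.40 ± 0.15 in PERK KO cells and by 3.55 ± 0.15 in wild type on the log2 scale. Fibroblast and stroma markers were, like LTBP1, lower in PERK KO cells at day 10. The 7 genes summed to 58.4 to 98.7 TPM in PERK KO libraries and 882 to 1230 TPM in wild type. Within PERK KO cells they had summed to 68.3 to 77.2 TPM at day 5, inside the day 10 range. LTBP1 in these cells averaged 76.0 CPM at day 5 and 294 CPM at day 10. The part of these markers in the LTBP1 result was not tested.

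The 4 ID genes, which encode inhibitors of basic helix-loop-helix factors and are direct targets of BMP SMADs, did not keep together over the days. At days 1 and 2, 2 were called lower and none higher in PERK KO cells, and at day 10, 1 was higher and 3 lower. At day 1 all 4 lay lower without overlap, ID2 (-0.30 ± 0.14) and ID3 (-0.65 ± 0.27) without being called. Without the 2 libraries that stood apart ID3 was called at day 1 (-0.64, edgeR adjusted p = 0.000173). ID3 had 42.4, 40.7 and 43.1 CPM in PERK KO libraries, against 307, 368 and 462 CPM in wild-type libraries at day 3 (log2 fold change -3.17 ± 0.29, edgeR adjusted p = 8.48e-11). It was lower at days 2, 5 and 10 too (-2.23 ± 0.28, -2.36 ± 0.28 and -1.98 ± 0.27), with no overlap. At day 0 ID3 was not called (0.28 ± 0.27), but its PERK KO values were 91.5, 315 and 97.1 CPM, and without replicate 2 the log2 fold change was -0.55 (adjusted p = 0.00932). ID2 was called lower from day 3. At day 10 it had 119, 109 and 120.0 CPM in PERK KO libraries, against 433, 454 and 339 CPM in wild-type libraries (log2 fold change -1.82 ± 0.15, edgeR adjusted p = 5.52e-12). ID1 had 36.7, 41.3 and 40.3 CPM in PERK KO libraries, against 116, 103 and 111 CPM in wild-type libraries at day 1 (log2 fold change -1.48 ± 0.25, edgeR adjusted p = 6.85e-05). At day 3 the order was the other way, with 421, 437 and 432 CPM in PERK KO libraries, against 205, 268 and 303 CPM in wild-type libraries (log2 fold change 0.73 ± 0.25, edgeR adjusted p = 0.0147). The groups did not overlap at these days, and the day 3 call ended without wild-type replicate 1 (0.59). At day 10 ID1 was lower (-0.74 ± 0.24). ID1 at day 0 had 92.2, 255 and 78.5 CPM in PERK KO libraries, against 78.8, 87 and 81.2 CPM in wild-type libraries (log2 fold change 0.78 ± 0.25, edgeR adjusted p = 0.0226). The groups overlapped, and without PERK KO replicate 2, the high library, the log2 fold change was 0.05. That day 0 call also ended without wild-type replicate 1 or 3 (0.75 and 0.77).

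ID4, which is abundant in neural progenitors, changed sides. ID4 at day 1 stood at 1.24, 0.733 and 0.958 CPM in PERK KO libraries, against 7.46, 5.19 and 7.19 CPM in wild-type libraries (log2 fold change -2.75 ± 0.21, edgeR adjusted p = 3.67e-11). At day 2 ID4 had 4.22, 3.65 and 3.57 CPM in PERK KO libraries, against 29.1, 27.5 and 27.5 CPM in wild-type libraries (log2 fold change -2.88 ± 0.18, edgeR adjusted p = 4.03e-14). ID4 at day 10 stood at 61.6, 63.5 and 67 CPM in PERK KO libraries, against 29, 31.8 and 21.7 CPM in wild-type libraries (log2 fold change 1.22 ± 0.16, edgeR adjusted p = 1.2e-07). The groups were apart at all 3 of these days, overlapped at day 3 (log2 fold change 0.11 ± 0.16, edgeR adjusted p = 0.623), and at day 5 ID4 was 0.94 ± 0.16 higher in PERK KO cells. Its day 0 call (0.66 ± 0.23) ended without 5 of the 6 day 0 libraries in turn (all but wild-type replicate 2, at 0.53 to 0.68), with DESeq2 (0.65), with the length offset (0.64) and with either other filter on low counts (0.63 and 0.64). Neuroectoderm markers were, like ID4, higher in PERK KO cells at day 10. The 9 genes summed to 641 to 725 TPM in PERK KO libraries (7 at 1 TPM or more) and 31.3 to 35.0 TPM in wild type (4 at 1 TPM or more, SOX1 at 0). They were also higher at day 3, when the ID4 libraries overlapped. The sums then were 350 to 362 TPM in PERK KO libraries and 127 to 149 TPM in wild type. Surface ectoderm and neural crest markers were higher in PERK KO cells at day 10 too (239 to 253 against 18.1 to 24.4 TPM). So were pluripotency markers (1150 to 1180 against 214 to 269 TPM). The part of these markers in the ID4 results was not tested. Per length ID1 led the 4 at day 10, at 702 ± 27.2 TPM in PERK KO cells and 931 ± 54.4 TPM in wild type, and ID2 and ID3 followed within their spread in wild type, ID2 at 293 ± 24.2 TPM in PERK KO cells and 802 ± 162 TPM in wild type and ID3 at 248 ± 10.7 TPM in PERK KO cells and 783 ± 81.8 TPM in wild type.

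**Figure D5:**
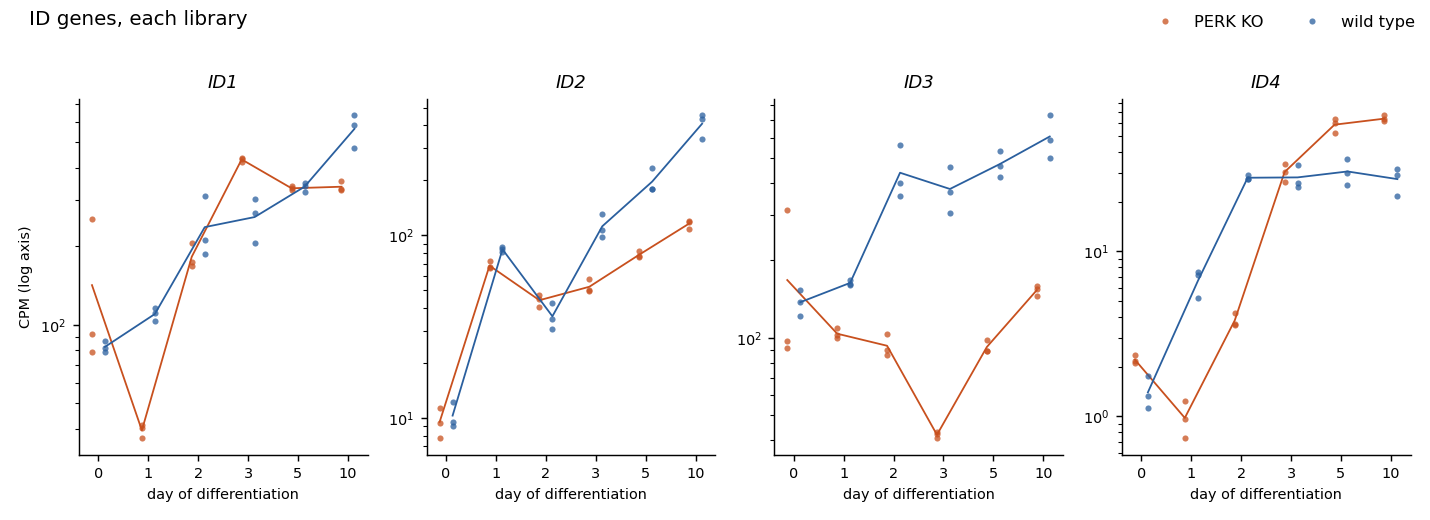
CPM of the 4 ID genes in each library (points, log axis) at each day, PERK KO in orange and wild type in blue, with lines through the group means. ID2 and ID3 are called lower in PERK KO cells from days 3 and 2, ID1 crosses between days, and ID4 passes from lower at days 1 and 2 to higher at days 5 and 10. The day 0 spread of ID1 and ID3 in PERK KO cells is replicate 2.

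Of 68 other pathway genes in a second list, 64 passed the filter on low counts. The list was chosen with earlier results of these data known. A lean of its counts relative to all genes could therefore come from that choice, and is no separate check. From day 0 to day 10, 4, 6, 16, 12, 16 and 14 of the 64 were higher in PERK KO cells and 9, 19, 28, 23, 30 and 38 lower. Of all genes tested 12.5%, 8.11%, 20.9%, 21.9%, 28.6% and 33.3% were higher and 8.64%, 7.72%, 21.7%, 23.2%, 30.5% and 34.0% lower at these days, so the higher share of the 64 was near or below that of all genes and the lower share above it. Among them the 14 other target genes had 1, 0, 2, 2, 2 and 1 higher and 1, 11, 9, 11, 11 and 12 lower over the same days. At day 3 the other ligands had 3 of 12 higher and 2 lower, and the other receptors 4 of 10 higher and 4 lower. The other antagonists and latency proteins then had 2 of 16 higher and 5 lower, and the nuclear partners and regulators 1 of 12 higher and 1 lower. The lower lean of day 3 thus lay mainly in the target genes. At day 10 these lists, in the same order, had 2, 3, 5 and 3 higher and 7, 5, 10 and 4 lower. EOMES, a NODAL target of the streak, averaged 2.09 ± 0.243 CPM in PERK KO cells and 168 ± 1.59 CPM in wild type at day 5 (log2 fold change -6.33 ± 0.21, edgeR adjusted p = 1.39e-20). GATA4, a BMP target of heart progenitors, averaged 4.08 ± 1.33 CPM in PERK KO cells and 562 ± 60.9 CPM in wild type at that day (log2 fold change -7.10 ± 0.32, edgeR adjusted p = 6.47e-18). MSX1, a BMP target, was already lower at day 1, at 4.04 ± 1.13 CPM in PERK KO cells and 64.2 ± 10.9 CPM in wild type (log2 fold change -4.00 ± 0.29, edgeR adjusted p = 8.65e-12). These genes also mark mesoderm and heart cells, EOMES is itself one of the streak markers, and their levels moved with the streak and cardiomyocyte markers given above, whose part was not tested. RGMA, a BMP co-receptor of neural tissue, was higher, at 134 ± 8.77 CPM in PERK KO cells and 3.24 ± 1.09 CPM in wild type at day 10 (log2 fold change 5.37 ± 0.21, edgeR adjusted p = 4.39e-19). GDF15, a stress-induced ligand, was lower at day 0, at 27.4 ± 5.97 CPM in PERK KO cells and 63.4 ± 13 CPM in wild type (log2 fold change -1.22 ± 0.25, edgeR adjusted p = 0.000668).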

How the data were processed

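RNA-seq libraries were analysed from the authors' deposited matrix of expected counts, estimated per gene by RSEM, with the deposited TPM values used for levels between genes and the deposited effective lengths (in bases, unit other) for 1 alternative. The submitters' processing notes name CASAVA, FastQC, STAR and RSEM and the builds GRCh38 and hg38, without roles or versions, and strand is not stated. The counts were made whole by rounding, then scaled by TMM. edgeR 4.0.16 (R 4.3.3) fitted its quasi-likelihood model to the 12 groups (24 residual degrees of freedom, biological coefficient of variation 18.7%) over the 19772 of 58721 genes kept by filterByExpr, with Benjamini-Hochberg adjustment over all of them. Each standard error was taken from the fold and its F value (size of the log2 fold over the root of F). CPM is TMM-scaled. Gene positions and exons are from GENCODE 29. Intervals of read ratios are exact conditional 95% intervals and cover counting error only. The scripts were tested on simulated data. Members and lists were chosen with earlier results of these data known. Genes described per day are called members with a group mean of 5 CPM or more, at most 8 a day, by fold, beside the smallest p of each role and, for the second list, at most 4 a day; other members are given by their calls. Alternatives were other filters, RLE scaling, DESeq2 1.42.0, a replicate block, fits within a day, a length offset and leaving out libraries. Replicate numbers did not pair the samples (correlations of same-numbered libraries -0.132 to 0.316).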

Additional observations from a re-analysis of the deposited data

Results flagged for a closer look

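For 10 genes the difference between PERK KO and wild-type cells itself changed most clearly from day to day, by edgeR's interaction of genotype and day (5 terms, adjusted over all genes tested). The adjusted p was 1.77e-20 for BMPER, 8.25e-18 for BMP4 and 4.53e-16 for SMAD6, each not called at day 0 and lower in PERK KO cells from day 2 on, SMAD6 also at day 1. It was 4.93e-16 for ID4, which was lower at days 1 and 2 and higher at days 5 and 10, and 4.83e-15 for TGFB1, lower at every day. NODAL (5.7e-15) was higher in PERK KO cells at day 2 and lower at days 1, 3, 5 and 10, and LEFTY2 (3.17e-14) was lower at days 2, 5 and 10. CHRD had 5.52e-14, FST 1.48e-13 and BMP2 8.28e-13. In all, 38 of the 44 genes passed this test, beside 80.9% of all genes tested.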

How the results depend on the processing

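Counts of the 44 genes called at days 1 to 10 stayed within 1.5 times under every alternative run, except the requirement of a fold of at least 2 for the PERK KO day 2 and day 5 changes from day 0, which left 12 of 26 and 20 of 31. The 8 calls of day 0 became 0 with only the 6 libraries of the day, 0 with the replicate block within the day, 2 with at least a 2-fold difference, and 5 to 10 when 1 library was left out. With a replicate block over all libraries the calls of PERK KO against wild type were 8, 17, 31, 31, 34 and 32 from day 0 to day 10. Reversed values were ID3 at day 0, -0.55 without the libraries that stood apart and -0.55 to 0.58 when 1 library was left out (-0.55 without PERK KO day 0 replicate 2), against 0.28 with all, and SMAD2 at day 10, -0.47 with the length offset, against 0.19. Neither was called with all libraries. Of 264 gene and day values, the number that kept direction and side of the threshold was 240 with only the 6 libraries of the day, 240 with the block within the day, 246 with the length offset, 246 without the 2 libraries that stood apart, 253 with no filter, 257 with DESeq2, 259 with the block over all libraries, 260 with a stricter filter and 263 with RLE scaling. Leaving out 1 library in turn kept 1476 of 1584. At low counts (INHBA, INHBB, GREM1, NOG, BMP5 up to day 3 and GDF3 at day 10) depth limits the folds.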
